A study of Mus musculus with 4 samples.

Results

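Interferon-stimulated genes were followed in the livers of mice during the resolution phase of acetaminophen (APAP)-induced acute liver injury. The group was chosen by symbol, as 39 named mouse genes that interferons are known to induce. Of these, 37 had an entry among the 27027 entries of the count table, and 30 passed the filter of a mean of at least 10 normalized reads over the 4 libraries, which 12113 entries passed in all. Hepatic RNA came from male C57BL/6J mice (strain given as C57BL/6), 9–12 weeks old, that were fasted for 10 h and injected i.p. with 0.9% NaCl (vehicle-treated control) or with APAP at 300 mg/kg. Livers were taken 24 h or 48 h later. Equal shares of RNA from 6 control mice or 7 APAP-treated mice were pooled per condition, and each pool gave 1 library of massive analysis of cDNA ends (MACE), a 3′mRNA sequencing method that counts fragments from the 3′ ends of transcripts. With 1 library per condition, APAP and control were compared at each time without a test. A test was run only over both times together, where the 24 h and 48 h libraries serve as repeats of a treatment. The spread between mice is not known, and all intervals are 95% exact intervals that cover counting error only.

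Type I interferons (interferon-α and -β) signal through a receptor whose kinases JAK1 and TYK2 activate transcription factors such as STAT2, which joins IRF9 in the complex ISGF3. ISGF3 binds the interferon-stimulated response element (ISRE), whereas the type II cytokine interferon-γ acts through gamma-activated sites (GAS). The induced proteins sense foreign RNA, degrade it, tether virions or attack the vacuoles of intracellular microbes, and some of them dampen the pathway. In the liver, hepatocytes, Kupffer cells and recruited leukocytes all respond to interferons.

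The DNA of the promoters is shown first. The genes were chosen as genes that interferons induce, and not by letters in their promoters. RefSeq promoters (GRCm38.p6, 250 bases before to 50 after the transcript start) were matched for 28 of the 39 genes. They were searched on both strands for the ISRE core GAAANNGAA, where N is any base, and for the palindromic GAS letters TTCNNNGAA. Some genes had more than 1 promoter. The ISRE core was found in 20 of their 33 promoters (60.6%), which belong to 19 genes, against 2812 of all 32851 promoters (8.56%). GAS letters were found in 9 of the 33 (27.3%), against 2726 of all promoters (8.3%). Promoters of Dhx58, Gbp6, Ifi27, Iigp1, Mx1, Mx2, Oas2, Parp14, Rtp4, Usp18 and Zbp1 were not searched here. Stretches of 60 bases are given for genes to which the results below return. They are written 5′ to 3′ on the strand of the gene, with the letters of every ISRE core in capitals, read as the reverse complement where the core lies on the other strand.
Rsad2: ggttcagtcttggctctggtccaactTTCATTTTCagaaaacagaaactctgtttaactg
Oas1a: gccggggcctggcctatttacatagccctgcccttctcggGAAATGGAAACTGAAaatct
Isg15: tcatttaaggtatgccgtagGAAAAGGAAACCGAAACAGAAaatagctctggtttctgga
Bst2: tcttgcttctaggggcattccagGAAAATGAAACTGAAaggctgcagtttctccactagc
Gbp2: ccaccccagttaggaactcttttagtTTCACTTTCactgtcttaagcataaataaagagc
Gbp7: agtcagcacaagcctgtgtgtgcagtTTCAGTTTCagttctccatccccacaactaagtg
Ifit3: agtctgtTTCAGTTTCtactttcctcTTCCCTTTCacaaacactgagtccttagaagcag
Ifit1: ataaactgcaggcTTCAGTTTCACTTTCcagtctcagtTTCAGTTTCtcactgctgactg
Igtp: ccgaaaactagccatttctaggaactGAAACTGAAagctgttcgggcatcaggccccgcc
Irgm2: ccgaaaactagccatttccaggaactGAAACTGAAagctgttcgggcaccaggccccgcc

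The window of Rsad2 is chr12:26456538-26456597 (minus strand), that of Oas1a chr5:120907526-120907585 (minus) and that of Isg15 chr4:156200857-156200916 (minus). Bst2 is shown at chr8:71537566-71537625 (minus), Gbp2 at chr3:142620579-142620638 (plus) and Gbp7 at chr3:142530258-142530317 (plus). Ifit3 lies at chr19:34583401-34583460 (plus) and Ifit1 at chr19:34640767-34640826 (plus). Igtp lies at chr11:58199496-58199555 (plus) and Irgm2 at chr11:58214887-58214946 (plus). The window of Isg15 holds 3 overlapping cores, that of Ifit1 holds 3, those of Oas1a, Bst2 and Ifit3 hold 2 each and the others 1. Those of Igtp and Irgm2 differ at 2 of 60 bases, and the matching window of Ifit3b was identical to that of Ifit3. In Bst2 the ISRE core overlaps GAS letters. An ISRE core stood in 3 of the 4 promoters of genes that were at least 2-fold higher after APAP, in 4 of 5 searched promoters of genes at least 2-fold lower at 24 h, and in 9 of the 15 searched promoters of genes that were neither. A match is a description of letters and was not tested for binding.

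The libraries held 4859661 to 5698778 reads. Albumin (Alb), the defining hepatocyte transcript, had 208729 to 254523 reads per library. Reads were divided by DESeq2 size factors, which ranged from 0.88 to 1.17. Scaling to library totals instead moved the median log2 fold of all genes by 0.19 at 24 h and by 0.27 at 48 h. Since size factors centre the folds on the typical gene, all folds below are relative to it. In pooled liver RNA, fewer cells of a type and less RNA per cell cannot be told apart.

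Of the interferon-stimulated genes that differed at least 2-fold from the control of the same time, most were lower 24 h after APAP and all were higher at 48 h. The genes called at 24 h and at 48 h were largely different ones, with only Rsad2 and Oasl2 called at both times. At 24 h, 6 of the 30 (20%) were at least 2-fold lower than in the control library with a counting interval that excluded 1, against 4.99% of all 12113 genes. They were Bst2, Dhx58, Ifit3, Oasl2, Gbp2 and Gbp7. Only Rsad2 was called higher by the same rule (1 of 30, 3.33%, against 4.89% of all genes). By library totals the split of higher to lower genes at 24 h was 2 to 2 in place of 1 to 6. That scaling raised the folds of all genes, with a median log2 fold of 0.19 for all genes and −0.10 for the 30. The share of all genes called under it was not counted. At 48 h none of the 30 was at least 2-fold lower (all genes 4.99%), and Rsad2, Oasl2, Isg15 and Oas1a were at least 2-fold higher (4 of 30, 13.3%, against 4.79%). The calls depended on the control. Against the sum of both controls, Bst2, Gbp2 and Gbp7 stayed lower at 24 h, and Rsad2 stayed higher. At 48 h Oas1a and Rsad2 stayed higher, and Isg15 and Oasl2 were not called. The shares given here describe the 4 libraries.

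The median log2 fold of the 30 genes was −0.28 at 24 h, where that of all genes was 0.01. At 48 h it was −0.02, the same as for all genes. Folds ranged from 0.346 to 2.61 at 24 h and from 0.532 to 4.37 at 48 h. At 24 h 20 of the 30 lay below the control, and at 48 h 16 did (all genes 49.6% and 51.3%). By library totals these counts were 16 and 5 (all genes 34.8% and 30.3%). Counting intervals excluded 1 on the lower side for 8 genes and on the upper side for 1 gene at 24 h (all genes 18.3% and 15.4%). At 48 h they did so for 2 and 6 genes (all genes 18.9% and 13.9%).

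**Figure D1:**
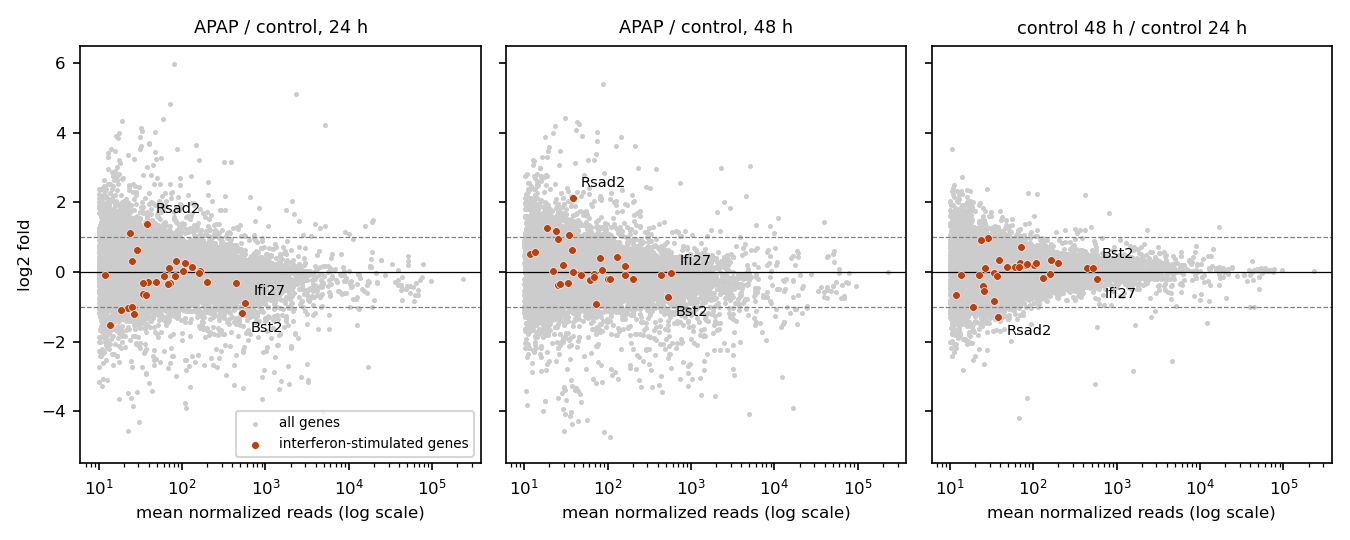
Log2 fold (vertical axis) against the mean of the normalized reads in the 4 libraries (horizontal axis, log scale) for 12113 genes in grey and 30 interferon-stimulated genes in orange, in 3 comparisons. Dashed lines mark a 2-fold difference. Rsad2 lies above the upper line in both APAP comparisons and below the lower line between the controls, Bst2 lies below the line at 24 h only, and most of the other genes lie among the grey points near 0.

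Rsad2, which encodes viperin, an enzyme that makes a chain-terminating nucleotide against viral RNA, had the largest fold of the 30 genes against the control of the same time (chr12:26442746-26456452). It had 23 and 10 reads in the control libraries at 24 h and 48 h, and 80 and 50 reads in the APAP libraries. Both APAP libraries thus lay above both controls. The fold was 2.61 at 24 h (interval 1.62 to 4.34) and 4.37 at 48 h (2.19 to 9.67). The fold at 48 h rests in part on the low control: against the 24 h control it was 1.79, and against the sum of both controls it was 2.57 (1.63 to 4.13). At 24 h the fold against both controls was 3.74 (2.47 to 5.8).

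Oas1a encodes an oligoadenylate synthetase, which senses double-stranded RNA and activates RNase L. Its reads were 9 and 18 in the controls and 26 and 46 after APAP. The fold was 2.16 at 24 h, with an interval of 0.983 to 5.25 that included 1, and 2.23 at 48 h (1.27 to 4.1). Both APAP libraries were above both controls, although the 24 h library exceeded the 48 h control by only 1.15-fold. The controls set the size of the fold at 48 h, which was 4.22 against the 24 h control and 2.89 against both (1.76 to 4.84). At 24 h the fold against both was 1.49 (0.833 to 2.65). The last 300 bases of Oas1a are 96.7% identical to those of Oas1g, so reads could be exchanged between these paralogs. The entry of Oas1g had 21, 20, 27 and 41 reads in the same order, with folds of 0.963 and 1.79.

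Oasl2 and Oasl1 encode oligoadenylate synthetase-like proteins. Oasl2 had 21 and 11 reads in the controls, and 13 and 30 after APAP. It was called lower at 24 h (0.464, interval 0.213 to 0.971) and higher at 48 h (2.38, 1.16 to 5.27). The controls differed by as much, 0.494-fold between 48 h and 24 h (0.215 to 1.07), and against the sum of both controls neither time point was called (0.627 and 1.59). Oasl1 had more reads, 86 and 108 in the controls and 136 and 107 after APAP, and its folds of 1.18 and 0.866 had intervals that included 1.

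Bst2 encodes tetherin, which holds budding virions at the cell surface (chr8:71534255-71537456). It had by far the most reads of the antiviral effectors, 585 and 664 in the controls and 341 and 461 after APAP. Both APAP libraries lay below both controls. The fold was 0.437 at 24 h (0.381 to 0.5) and 0.607 at 48 h (0.538 to 0.685), and the controls differed by 1.07-fold only (0.956 to 1.2). By library totals Bst2 remained lower, with a fold of 0.73 at 48 h.

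The IFIT proteins bind the ends of foreign RNA and block its translation. Ifit3 had 23 and 23 reads in the controls and 15 and 27 after APAP, a fold of 0.489 at 24 h (0.237 to 0.978) and of 1.03 at 48 h. Ifit1 had 15, 31, 31 and 41 reads (control 24 h, control 48 h, APAP 24 h, APAP 48 h). Its controls differed by 1.95-fold (1.02 to 3.89), more than the APAP library differed from its control at either time (1.55 and 1.16). Ifit2 with 3 to 7 reads and Ifit3b with 0 to 7 reads did not pass the filter. The 0 reads of Ifit3b in the APAP library at 48 h, against 7 in the control, give a fold of at least 2.67 lower with a floor of 3 reads in the APAP library.

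Of the remaining antiviral effectors, Oas2 and the GTPases Mx1 and Mx2 stayed near the detection limit. Oas2 had 1 and 3 reads in the controls and 0 reads in both APAP libraries. Mx1 had 0, 2, 2 and 4 reads, and Mx2, annotated as a polymorphic pseudogene, had 1, 4, 3 and 10. In inbred strains such as C57BL/6 the Mx genes are known to be defective. At each time no difference from the control of that time was detectable at this depth. Against the sum of both controls, Mx2 had a fold of 3.4 at 48 h (1.06 to 12.7), from 10 against 5 reads.

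Because Bst2 supplied 75.6% of the reads of the 12 antiviral effectors in the 24 h control, the sum of the group followed it. Summed reads were 0.633 of the control at 24 h (0.57 to 0.703) and 0.767 at 48 h (0.696 to 0.846). Without Bst2 the sum of the other 11 genes was 1.24-fold of the control at both 24 h (1.03 to 1.49) and 48 h (1.04 to 1.48). The direction of this group therefore changes with 1 gene. The other 11 genes had 189 and 224 reads in the controls and 313 and 318 after APAP. Of these, Rsad2 supplied 23 and 10 in the controls and 80 and 50 after APAP, and thus part of the rise. The sum without both Bst2 and Rsad2 was not computed.

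**Figure D2:**
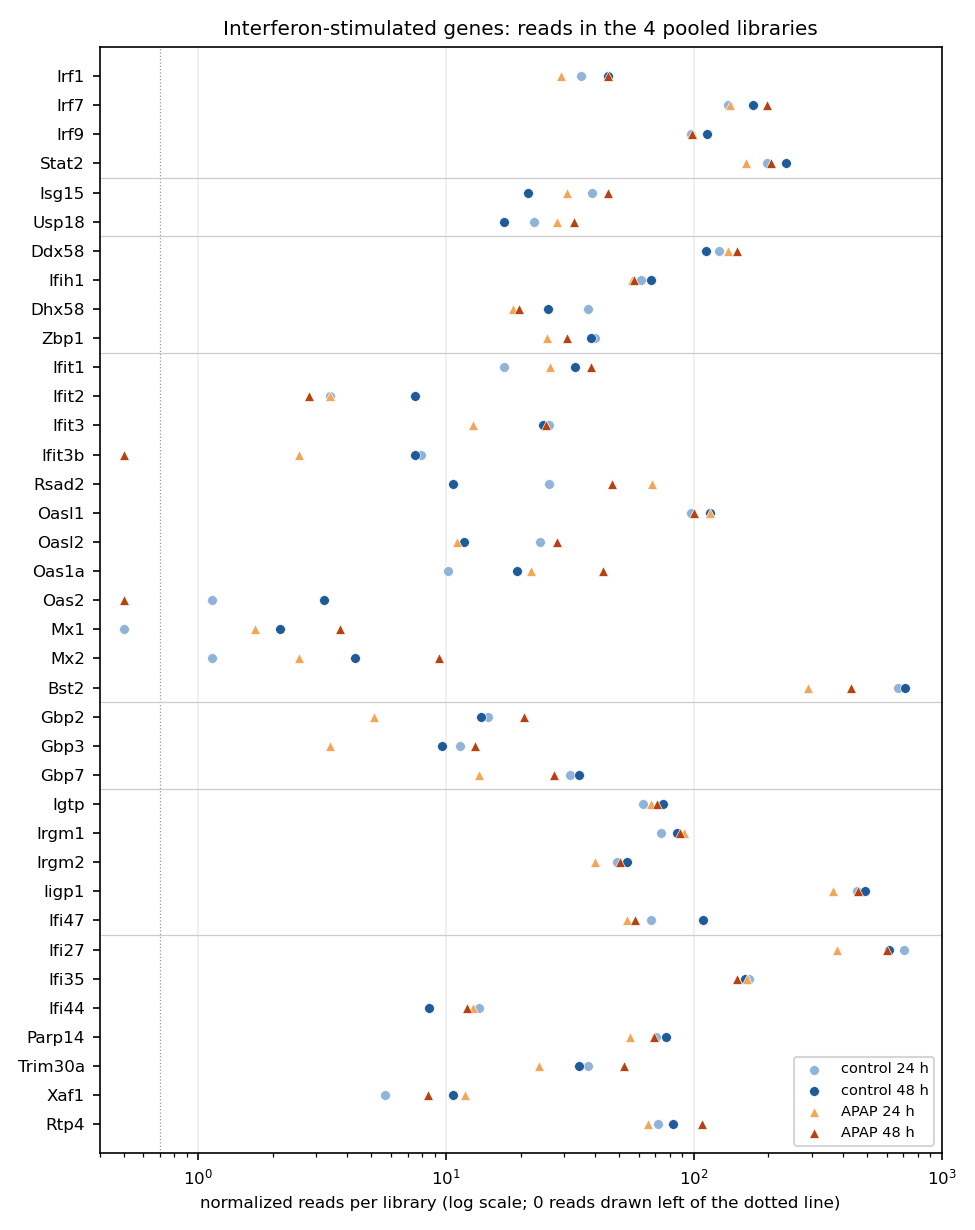
Reads divided by size factors (horizontal axis, log scale) of the 37 genes with an entry, in order of their roles, for the control libraries (circles) and the APAP libraries (triangles) at 24 h (light) and 48 h (dark). Libraries with 0 reads are drawn left of the dotted line. Both triangles lie right of both circles for Rsad2 and left of them for Bst2, while the symbols of most genes overlap.

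Isg15 encodes a ubiquitin-like protein that is attached to other proteins, and Usp18 the protease that removes it and also blocks the interferon receptor. Isg15 (chr4:156199424-156200818) had 34 and 20 reads in the controls, and 36 and 48 after APAP. The fold was 0.793 at 24 h (0.482 to 1.31) and 2.1 at 48 h (1.22 to 3.73). The 48 h control was itself the lowest of the 4 libraries, 0.555-fold of the 24 h control (0.303 to 0.992), and against both controls together the fold at 48 h was 1.51 (1 to 2.27). Over 136 bases of its 3′ end Isg15 is 95.6% identical to the annotated gene AC151275.1. Usp18 had 20, 16, 33 and 35 reads. Both APAP libraries of Usp18 lay above both controls, with folds of 1.24 at 24 h (0.689 to 2.27) and 1.91 at 48 h (1.03 to 3.7), under the 2-fold threshold. Its 3′ end lies opposite Gm44148.

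The transcription factors of the pathway changed little. Stat2, a subunit of ISGF3 and the factor with the most reads, had 174 and 220 reads in the controls and 191 and 218 after APAP. Its folds were 0.822 (0.666 to 1.02) and 0.867 (0.715 to 1.05). Irf7, which drives interferon-α genes, had 121, 162, 164 and 210 reads and folds of 1.02 (0.798 to 1.3) and 1.13 (0.919 to 1.4). Irf9 and Irf1 gave folds of 1.02 and 0.874, and of 0.822 and 0.999. None of the 4 had a counting interval that excluded 1 against the control of the same time. Against the sum of both controls Stat2 was at 0.748 at 24 h (0.626 to 0.892) and Irf7 at 1.26 at 48 h (1.05 to 1.51). Their summed reads were 0.92 (0.806 to 1.05) and 0.96 (0.852 to 1.08) of the controls. The entry of Irf9 also carries the identifier of its neighbour Rnf31, and the 3′ end of Irf7 lies opposite Phrf1.

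Among the sensors, Ddx58 (RIG-I) and Dhx58 (LGP2) differed in direction. Ddx58, a helicase that recognises triphosphorylated RNA ends, had 111 and 104 reads in the controls and 162 and 159 after APAP. Its folds were 1.09 (0.854 to 1.4) and 1.34 (1.04 to 1.73), and both APAP libraries were above both controls. Dhx58, which modulates the other helicases, had 33 and 24 reads in the controls and 22 and 21 after APAP. It was called lower at 24 h with a fold of 0.499 (0.277 to 0.883), right at the threshold, and had a fold of 0.765 (0.405 to 1.43) at 48 h. Dhx58 is overlapped on the opposite strand by Dhx58os. Ifih1 (MDA5) had 54 to 66 reads and Zbp1, a sensor of Z-form nucleic acids that can start necroptosis, 30 to 36 reads. The intervals of both included 1 at both times.

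The guanylate-binding proteins, GTPases that coat the vacuoles of intracellular microbes and are strongly induced by interferon-γ, were lower at 24 h in the 2 members that passed the filter, neither of which was called at 48 h. Gbp2 (chr3:142620602-142638008) had 13 and 13 reads in the controls, 6 in the APAP library at 24 h and 22 at 48 h. Its fold was 0.346 at 24 h (0.108 to 0.975) and 1.48 at 48 h (0.713 to 3.2). Gbp7 (chr3:142530342-142550149) had 28 and 32 reads in the controls, and 16 and 29 after APAP, with folds of 0.428 (0.216 to 0.819) and 0.792 (0.463 to 1.35). For both genes the 24 h APAP library was the lowest of the 4, and their control libraries differed by 0.943-fold and 1.08-fold. The identifier of Gbp7 stands in the entry Gm43802 as well.

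Gbp3 did not pass the filter, with 10 and 9 reads in the controls and 4 and 14 after APAP. The summed reads of Gbp2, Gbp3 and Gbp7 were 51, 54, 26 and 65, which gives 0.382 of the control at 24 h (0.229 to 0.624) and 1.05 at 48 h (0.722 to 1.54). Both called members were also called against the sum of both controls. Gbp6 had no entry of its own. The last 300 bases of Gbp6 are identical to a stretch of Gbp10. The identifier of Gbp6 stood in the entry Gm43302, which had 24, 32, 19 and 15 reads. Its folds were 0.593 at 24 h (0.307 to 1.13) and 0.41 at 48 h (0.206 to 0.779), so it was called lower at 48 h, unlike Gbp2 and Gbp7. Of the family members in the pathway list, Gbp8 had folds of 0.535 and 2.27 and Gbp9, under the filter, 0.674 and 2.62, from 4 to 14 reads per library.

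The immunity-related GTPases act beside them on vacuoles of intracellular microbes. Iigp1 had the most reads of this family, 399 and 457 in the controls and 429 and 489 after APAP, and its folds were 0.806 (0.701 to 0.926) and 0.936 (0.822 to 1.07). Ifi47 had 59, 102, 63 and 62 reads, so that the 48 h control stood apart from the other libraries. The fold of Ifi47 was 0.8 at 24 h (0.552 to 1.16) and 0.532 at 48 h (0.381 to 0.736), and the controls differed by 1.63-fold (1.17 to 2.29). Its entry also holds the identifier of Olfr56.

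Irgm1 had 65, 80, 107 and 94 reads, both APAP libraries above both controls, with folds of 1.23 and 1.03. Igtp had 55, 70, 79 and 76 reads and Irgm2 had 43, 50, 47 and 54. The entry of Igtp also carries the identifier of Irgm2, so their reads cannot be fully separated. None of the 5 measured members was called at either time. Tgtp1 had no entry of its own; its identifier stood in the entry Gm12185, which had 401, 379, 320 and 356 reads and folds of 0.598 (0.515 to 0.694) and 0.821 (0.709 to 0.952). Its close paralog Tgtp2 had 16, 10, 14 and 11 reads.

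The other interferon-induced genes were led in read number by Ifi27, which encodes a small hydrophobic membrane protein (chr12:103434211-103440239). It had 622 and 573 reads in the controls, and 446 and 640 after APAP. Its fold of 0.537 at 24 h (0.475 to 0.608) was just short of the threshold, and at 48 h the fold was 0.977 (0.871 to 1.1). Trim30a, a ubiquitin ligase that restrains inflammatory signalling, had 33, 32, 28 and 56 reads. The APAP library at 24 h was the lowest and that at 48 h the highest, with folds of 0.636 (0.37 to 1.08) and 1.53 (0.974 to 2.44). Rtp4, whose entry also carries Gm45338, had 63, 77, 77 and 115 reads and folds of 0.916 and 1.31. Ifi35 (147 to 192 reads), Parp14 (62 to 74 reads) and Ifi44 (8 to 15 reads) had intervals that included 1 at both times. Xaf1, with 5 to 14 reads, did not pass the filter.

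**Figure D3:**
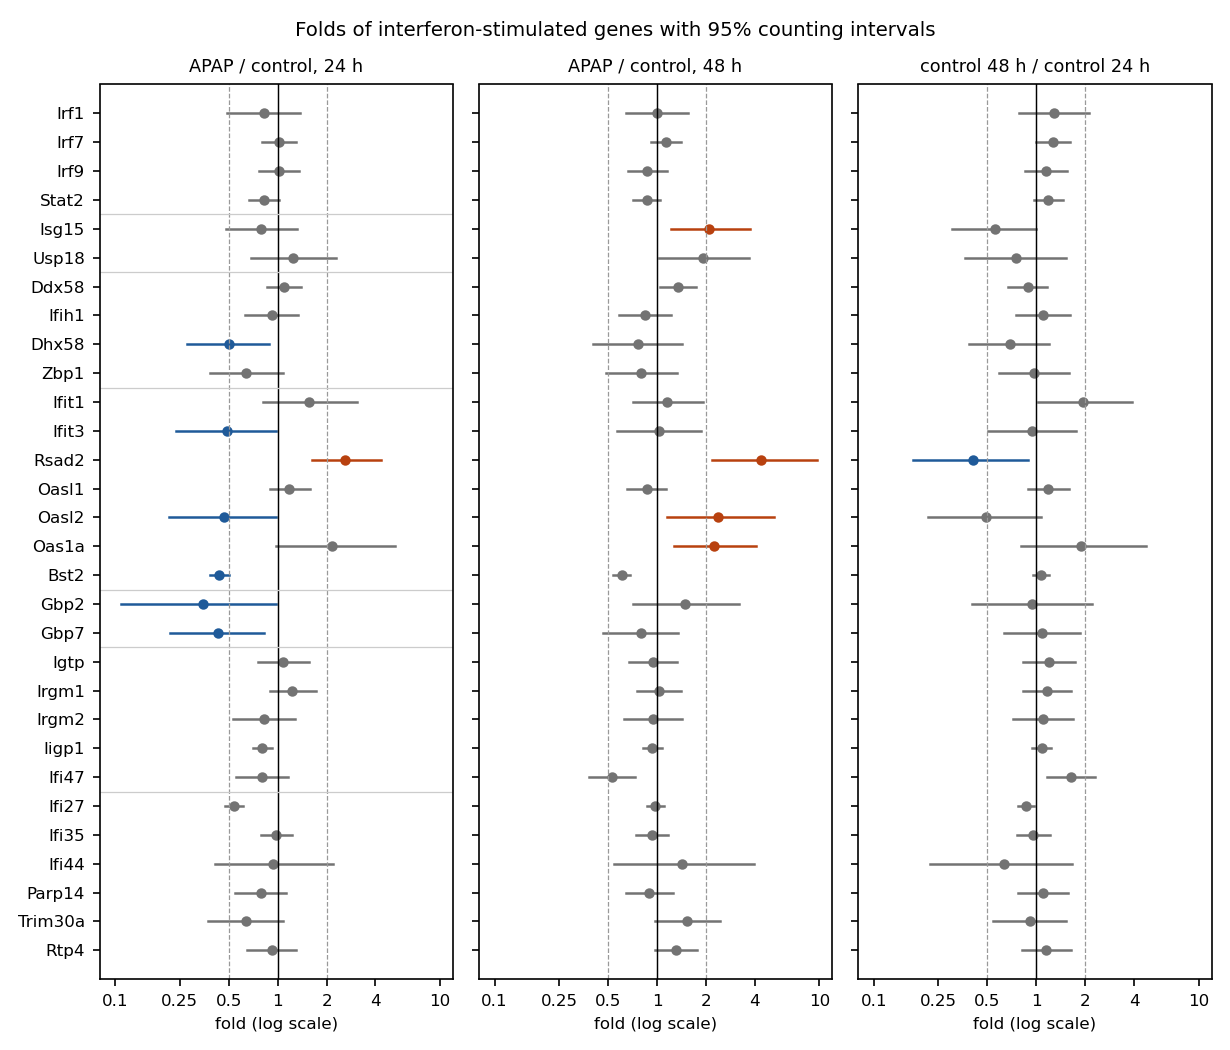
Folds (points, log scale) with 95% counting intervals (lines) of the 30 genes that passed the filter, for APAP over control at 24 h and 48 h and for the 48 h over the 24 h control. Orange marks genes called at least 2-fold higher and blue those called at least 2-fold lower. At 24 h there are 6 blue genes and 1 orange gene, at 48 h 4 orange genes and no blue one, and Rsad2 is the only coloured gene between the controls.

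The difference between the time points was examined as the ratio of the 48 h fold to the 24 h fold, which uses all 4 libraries. For 4 of the 30 genes this ratio was at least 2 with an interval that excluded 1 (13.3%, against 2.92% of all genes), and for none was it at most 0.5 (all genes 3.46%). The 4 were Oasl2 with a ratio of 5.14 (1.75 to 15.4), Gbp2 with 4.28 (1.14 to 17), Isg15 with 2.65 (1.24 to 5.68) and Trim30a with 2.41 (1.17 to 4.94). Ifi27 had a ratio of 1.82 (1.53 to 2.15) and Bst2 one of 1.39, both with tight intervals from high counts. Rsad2 and Oas1a had ratios of 1.68 and 1.03 with intervals that included 1.

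Between the 2 control libraries, none of the 30 genes was at least 2-fold higher at 48 h (all genes 1.77%), and 1 was lower, Rsad2 (0.41-fold, 0.174 to 0.896; 3.33% against 1.44% of all genes). The median log2 difference of the 30 genes was 0.11, and that of all genes 0.02. Considering positions only, both APAP libraries lay above both controls for 5 of the 30 genes (Ddx58, Irgm1, Oas1a, Rsad2 and Usp18; 16.7%, against 24.8% of all genes). They lay below both controls for 8 (Bst2, Dhx58, Gbp7, Ifi27, Ifi47, Ifih1, Parp14 and Zbp1; 26.7%, against 26.3%). By library totals these counts were 10 and 3 (33.3% and 10%, against 44.2% and 13.6% of all genes).

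Over both times together, edgeR's quasi-likelihood test of APAP against control (2 libraries each) gave an adjusted p under 0.05 for 1 higher gene, Rsad2 (3.33% of the 30, against 2.15% of all genes), and 1 lower gene, Bst2 (3.33% against 4.28%). The log2 fold was 1.65 for Rsad2 (edgeR adjusted p = 0.0364) and −0.93 for Bst2 (adjusted p = 0.0248). At an unadjusted edgeR p under 0.05, 2 of the 30 genes were higher, Rsad2 and Oas1a (1011 of all 12113 genes). At this p 2 were lower, Bst2 and Ifi47 (1459 of all 12113 genes). The call of Rsad2 was lost without the 48 h control or the 24 h APAP library. The call of Bst2 was lost without either control or the 24 h APAP library, and by library totals.

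The pathway around these genes was described with a list of 69 further genes, of which 58 had an entry and 48 passed the filter. At 24 h 6 were called higher and 1 lower, and at 48 h 2 higher and 1 lower, where 4.89% and 4.99% of all genes were at 24 h and 4.79% and 4.99% at 48 h. Of the interferon genes, Ifng had 1 read in the 48 h control and 0 reads in the other libraries, where a count of 0 allows up to 3 reads, or 0.526 to 0.617 RPM (reads scaled to the library total). The interferon-α, -β and -λ genes listed were not analysed here.

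Feedback regulators were among the genes called higher. Socs3, an inhibitor of cytokine receptors of the gp130 family that is induced through STAT3, had 11 and 17 reads in the controls and 138 and 49 after APAP. Its fold was 9.4 at 24 h (5.09 to 19.3) and 2.52 at 48 h (1.43 to 4.67), and Socs1, the main inhibitor of interferon signalling, had 1, 5, 6 and 1 reads. Ptpn2, a phosphatase of JAK and STAT proteins, had 26, 38, 80 and 47 reads and was called higher at 24 h (2.31, 1.46 to 3.74). Irf8, a factor of monocytes and dendritic cells, had 17, 18, 46 and 41 reads, with folds of 2.03 (1.14 to 3.77) and 1.99 (1.12 to 3.68). The receptor chain Il10rb, shared by interleukin-10 and interferon-λ receptors, had 22, 15, 46 and 47 reads and was called higher at 48 h (2.74, 1.51 to 5.28). Tmem173, which encodes STING, had 6, 9, 21 and 17 reads and was called higher at 24 h (2.62, 1.02 to 7.94).

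The chemokines Cxcl9 and Cxcl10, ligands of CXCR3 that interferon-γ induces, differed in direction. Cxcl9 had 37 and 45 reads in the controls and 12 and 13 after APAP, and was called lower at both times (0.243, 0.115 to 0.476, and 0.253, 0.125 to 0.477). Cxcl10, which inflammatory cytokines can also induce, had 3 and 7 reads in the controls and 25 and 15 after APAP, with a fold of 6.24 at 24 h (1.91 to 32.3) and 1.87 at 48 h (0.719 to 5.43). Ifi204, a nuclear DNA sensor, had 3, 16, 28 and 27 reads, so that its call at 24 h (6.99, 2.16 to 35.9) rests on the low 24 h control, and it was also called higher between the controls. Socs3, Ptpn2 and Ifi204 were called for a lower fold at 48 h than at 24 h. Ifi27l2b (21, 64, 53 and 91 reads) was called higher and Gbp8 (14, 5, 10 and 13 reads) lower between the controls only. Nmi, the partner of IFI35, had 81, 51, 66 and 101 reads and, like Eif2ak2 (48, 32, 35 and 45 reads) and Ifi27l2a (44, 57, 34 and 79 reads), was called only for its ratio of folds between the times (2.84, 2.25 and 2.09). Ifitm3, which blocks viral entry and had the most reads of all the interferon-induced genes listed, had 3921 and 4778 reads in the controls and 3187 and 3360 after APAP, folds of 0.609 (0.581 to 0.638) and 0.615 (0.588 to 0.643). Its family member Ifitm2 had 1617, 1477, 2239 and 2242 reads and was not lower, with folds of 1.04 (0.973 to 1.11) and 1.33 (1.24 to 1.42).

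Markers of cell types that respond to interferons were examined beside these genes. The macrophage and monocyte markers summed to 556 and 533 reads in the controls and to 1103 and 1602 after APAP, 1.49-fold (1.34 to 1.65) and 2.63-fold (2.38 to 2.9). Of these 8 genes 4 were called higher at 24 h and 5 at 48 h. Marco had 60, 37, 245 and 169 reads, Cd68 had 64, 59, 161 and 345, Ccr2 had 3, 6, 15 and 27, and Ly6c2 had 3, 5, 21 and 33. Lyz2 had 84, 107, 384 and 659 reads, whereas Clec4f, which defines Kupffer cells, had 268, 261, 191 and 294 (0.534 and 0.985). Adgre1 had 51, 40, 54 and 52 reads (0.793 and 1.14) and Timd4 had 23, 18, 32 and 23 (1.04 and 1.12). Counting intervals of Adgre1 and Timd4 included 1 at both times. The 4 neutrophil markers measured summed to 14 and 17 reads in the controls and to 241 and 160 after APAP. Most of these reads came from S100a8, at 5, 10, 139 and 106 reads, and S100a9, at 6, 1, 75 and 38. Cxcr2 had 1, 1, 9 and 0 reads and Retnlg 2, 5, 18 and 16, and neither passed the filter. The part of these cell types in the folds of the interferon-stimulated genes was not tested.

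Markers of lymphocytes and of plasmacytoid dendritic cells, known sources of interferon-γ and interferon-α, were near the detection limit. The 7 markers of T and NK cells summed to 9 to 16 reads per library, with Cd8a at 0 in every library and Cd3e at 3 or 4. The 4 markers of plasmacytoid dendritic cells summed to 4 to 11 reads, with Siglech at 1 to 5, and the 4 B cell markers to 6 to 11. Hepatocyte markers summed to 0.871 of the control at 24 h (0.867 to 0.875) and 0.984 at 48 h (0.98 to 0.989). Within this list Cyp2e1, the enzyme that activates APAP, was lower, with 6910 and 7614 reads in the controls and 5742 and 3213 after APAP (0.623 and 0.369). Sinusoidal endothelial markers summed to 0.994 (0.884 to 1.12) and 0.931 (0.831 to 1.04), but Lyve1 among them, with 22, 30, 77 and 70 reads, was called higher at both times (2.62 and 2.04) while the other 4 lay below 1. Stellate cell markers summed to 1.18 (1.02 to 1.36) and 1.31 (1.15 to 1.5), a sum carried by Dcn with 222, 257, 406 and 435 reads. At 24 h the other 3 stellate markers lay below 1, Lrat at 0.557 (0.322 to 0.951), and Hgf, with 12, 6, 8 and 15 reads, was called for its ratio of folds between the times (4.38, 1.01 to 19.8).

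**Figure D4:**
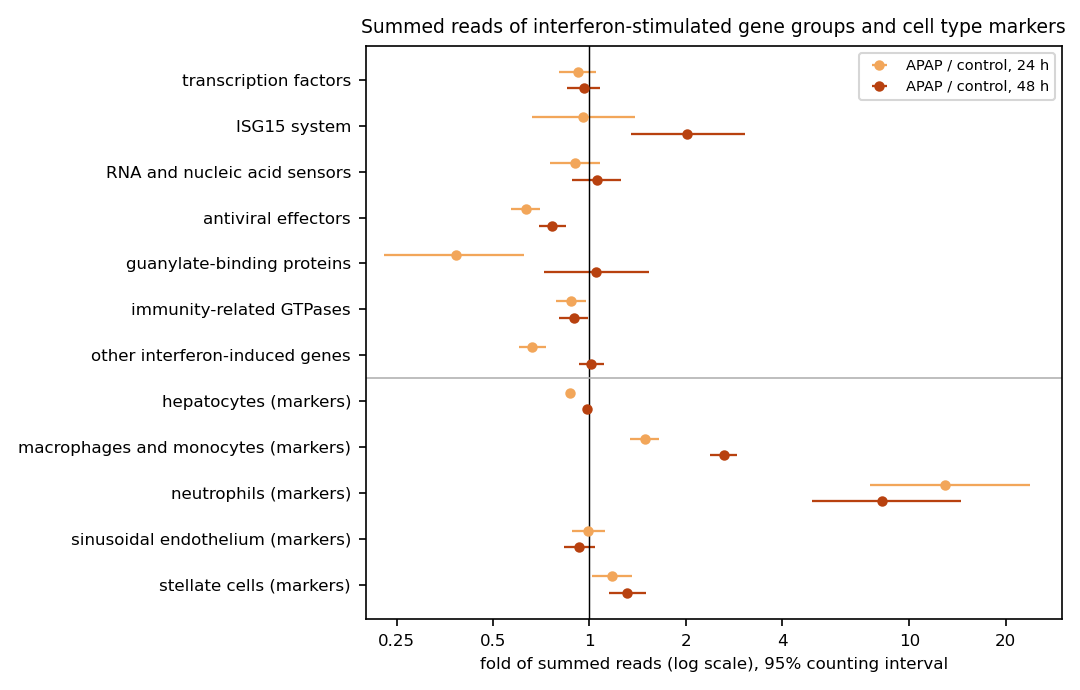
Fold of the summed reads (points, log scale) with 95% counting intervals (lines) for the 7 role groups of interferon-stimulated genes (top) and for cell type markers (bottom) at 24 h (light) and 48 h (dark). Guanylate-binding proteins lie at 0.382 at 24 h and 1.05 at 48 h, the ISG15 system at 0.957 and 2.02, and the neutrophil markers at 12.9 and 8.23. The cell types with 16 or fewer summed reads per library are not drawn.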

How the data were processed

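Hepatic RNA of 4 pools was sequenced by MACE. Before mapping to mm10, the authors removed duplicates (unique molecular identifiers), low-quality bases (cutadapt) and poly(A)-tails, and they deposited raw counts per gene from HTSeq; versions are not given in the sources used here. Normalized values and the authors' own comparisons (ratios, p-values) in the deposited table were not used. Libraries were assigned by their labels.

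Size factors came from DESeq2 1.42.0, and TMM factors from edgeR 4.0.16 (R 4.3.3). Folds and intervals were computed in Python 3.11.15 with scipy 1.17.1. Entries entered at a mean normalized count of 10 or more. A count of 3 or fewer was set to 3 reads. An entry was called when the fold was at least 2 either way and its exact 95% (Clopper-Pearson) counting interval excluded 1. Ratios of folds used the noncentral hypergeometric distribution. A library with 0 reads allows up to 3 reads. With 1 library per condition, no test was run at a single time. Over both times, edgeR's quasi-likelihood test compared 2 APAP with 2 control libraries, without time as a block (2 residual degrees of freedom) and with it; this test and its alternatives (TMM, library totals, DESeq2, each library left out) were chosen after seeing the data. Its p-values measure the spread between pools of different times. The procedure was tested on simulated data.

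Gene positions are from GENCODE (GRCm38) and promoters from RefSeq (GRCm38.p6). Transcript ends (300 bases) were compared with blastn 2.17.0 (95% identity or more, over 100 bases or more). Reads in all 4 libraries are given for genes called in any comparison, the gene with the most reads per role, genes with near-identical paralogs, interferon genes and defining markers; further genes were named after their values were seen. A gene of the pathway list is not reported here. The genes, role groups and lists were chosen with earlier results of these data known. Alternatives were TMM, library totals, a pseudocount of 1, a floor of 10 reads, no filter, thresholds of 1.5 and 5, no interval, other control pools, and leaving out genes that share an entry or a transcript end.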

Additional observations from a re-analysis of the deposited data

Results flagged for a closer look

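For 4 genes the fold of APAP over control differed between 24 h and 48 h, with an exact interval of the ratio of the folds that excluded 1. The ratio was 2.65 for Isg15, 5.14 for Oasl2, 4.28 for Gbp2 and 2.41 for Trim30a, in each case toward higher reads at 48 h. The interval compares 4 libraries and not mice. For Isg15 and Oasl2 the control libraries differed as well, at 0.555-fold and 0.494-fold between 48 h and 24 h, whereas for Gbp2 and Trim30a they stood at 0.943 and 0.915. The counts behind Gbp2 are small, with 6 to 22 reads per library.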

How the results depend on the processing

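Each condition at a given time was 1 pooled library, so only the test over both times could be paired. With time as a replicate block it called 1 gene higher (Rsad2) and 1 lower (Bst2), as without the block. In that test library totals gave 0 lower genes. With a library left out, the genes called changed, and not only their number, but such a fit leaves 1 library in a group. The medians of the 30 genes stayed within the medians of the single-gene interval bounds under every alternative, and no called fold changed sign. These bounds are wide (−0.76 to 0.36 at 24 h and −0.49 to 0.49 at 48 h) and are not an interval of the median. By library totals the 48 h median was 0.25 in place of −0.02, as for all genes. Of 24 h genes called higher (1), library totals gave 2, the 2-fold threshold without the interval 2 and a 5-fold threshold 0. Of those called lower (6), library totals gave 2 (Bst2 and Gbp7), both controls summed 3 (Bst2, Gbp2 and Gbp7) and a 5-fold threshold 0. TMM gave 5, without Dhx58, and a floor of 10 reads gave 5, without Gbp2. A pseudocount of 1 gave 4, without Dhx58 and Ifit3. The other control pool gave 3, namely Bst2, Gbp7 and Ifi47, the last of which was not called in the main setting. Of 48 h genes called higher (4), the other control pool gave 2, Oas1a and Ifit1, the latter not called in the main setting. Both controls summed gave 2 (Oas1a and Rsad2) and a 5-fold threshold 0. Leaving out genes that share an entry or a transcript end gave 2 (Isg15 and Oas1a were then absent). Of 48 h genes called lower (0), no filter gave 1 (Ifit3b) and a 1.5-fold threshold 2 (Bst2 and Ifi47). Between the controls, a 1.5-fold threshold gave 2 higher (0) and 2 lower (1), no interval 2 lower and a 5-fold threshold 0 lower. A 5-fold threshold left 1 gene for the ratio of folds (4). Both APAP libraries lay above both controls for 10 genes by library totals (5; 44.2% of all genes) and below them for 3 (8; 13.6%), an alternative chosen after seeing the data. Except for the library totals, thresholds, filter and shared entries, whose own construction sets the count, the cause was not tested. Below about 30 reads per library, intervals were wide, as for Gbp2, Ifit3 and Oasl2.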
